A study of Mus musculus with 2 samples.

Results

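The genes described here are 9 genes of the hyaluronan-rich extracellular matrix, taken by symbol from the 33696 genes counted in 2 single-cell RNA-seq libraries of mouse mammary stroma. They are the hyaluronan synthases Has1 and Has2, the hyaluronan-degrading genes Hyal1, Hyal2 and Cemip, the hyaluronan receptor Cd44, the hyaluronan-binding proteoglycan versican (Vcan), its link protein Hapln1, and lubricin (Prg4). Both libraries came from wildtype C57BL/6 females: pubertal mice aged 4 weeks and virgin adult mice aged 9 weeks, with 2 females per condition. The stromal fraction was sorted without Lineage or CD24 staining, which leaves out most endothelial, immune and epithelial cells, and was profiled with the 10x GEM-X Single Cell 3′ v4 kit. Each stage was 1 library, so no difference between the stages could be set against a replicate and no p-value is given; intervals are 95% and cover counting error only.

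Barcodes numbered 21688 at puberty and 23183 in the adult, with 145 occurring in both, and the UMI totals were 255274670 and 259549498. Fibroblasts were taken as cells with at least 500 genes, at most 10% mitochondrial UMIs and at least 1 UMI of Pdgfra, a receptor that marks fibroblasts. This gave 18878 pubertal and 20999 adult Pdgfra+ cells, with medians of 12187 and 11265 UMIs. The 5 fibroblast markers Dcn, Lum, Pdgfra, Col1a2 and Col1a1 summed to 30436 and 25433 CPM (UMIs of a gene per 1000000 UMIs). In the same cells 5 epithelial markers summed to 3.16 and 1.12 CPM and 5 immune markers to 1.18 and 1.09 CPM. Sums were larger for 8 pericyte and smooth muscle markers (157 and 107 CPM), 6 endothelial markers (44.5 and 21.7 CPM) and 5 Schwann cell markers (27.3 and 28.5 CPM). Levels below are UMIs summed over cells and scaled to CPM; since 3′ UMI counts are not scaled to length, they are compared between cells and stages, not between genes.

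Hyaluronan is a long, unsulfated sugar polymer that synthases extrude through the plasma membrane from UDP-glucuronic acid and UDP-N-acetylglucosamine. In connective tissue it binds water, is held on the cell surface by CD44, and is cross-linked by versican and by link proteins. Lubricin is a mucin-like glycoprotein best known as the boundary lubricant of joints and tendons, and the hyaluronidases and CEMIP cut the polymer down. In the mammary gland, hyaluronan and versican are components of the stroma around the ducts, which elongate during puberty.

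Within the Pdgfra+ cells, 6 subsets were taken by single genes known to mark fibroblast states. Pi16+Dpp4+ cells (at least 1 UMI of each, the markers of universal progenitor-type fibroblasts) made up 74.1% of pubertal and 42.2% of adult Pdgfra+ cells. Ccn5 cells (at least 2 UMIs) made up 4.33% and 2.96%, Gdf10 or Fmo2 cells 39.5% and 47.9%, Thbs4 or Bmp5 cells 4.91% and 14.8%, Fabp4 cells (at least 2 UMIs) 9.42% and 12.2%, and Crabp1 cells 1.53% and 12.7%. The subsets overlap: 32.5% of pubertal and 36.7% of adult cells were in more than 1 of them, and 98.2% and 96.8% of Ccn5 cells were also in another. Median depth ran from 11860 to 14088 UMIs over the pubertal subsets and from 10588 to 14606 over the adult ones.

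Of the 8 members with at least 50 UMIs over both libraries, 4 were at least 1.5-fold lower in the adult (Has1, Has2, Cd44 and Prg4), beside 10.3% of the 18048 genes compared. Only Cemip was at least 1.5-fold higher, beside 20.1% of all genes, and its ratio fell inside 1.5-fold under TMM scaling (1.45), with at least 2 Pdgfra UMIs per cell (1.49) and with the shares of cell groups held fixed (1.08). Hyal1, Hyal2 and Vcan stayed within 1.5-fold, and Hapln1 had too few UMIs to compare. The median log2 ratio of adult to pubertal level was -0.64 over the 8 members and 0.17 over all genes compared.

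**Figure D1:**
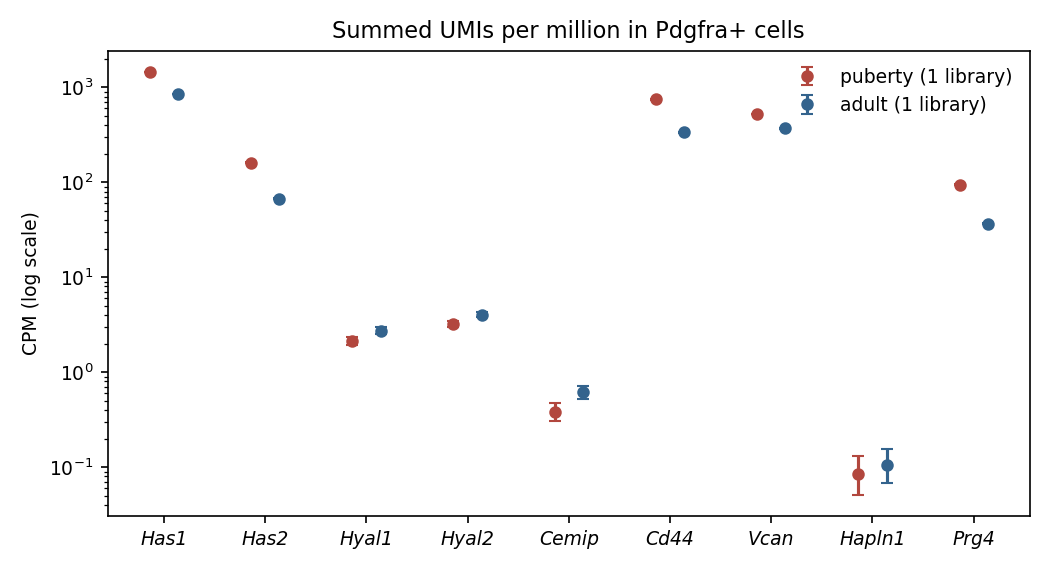
Summed level (CPM, log scale) of the 9 genes over all Pdgfra+ cells in the pubertal and the adult library (1 library each), with exact Poisson 95% intervals for counting error. Has1, Has2, Cd44, Vcan and Prg4 sit lower in the adult library, whereas Hyal1, Hyal2 and Cemip sit higher at levels below 5 CPM, and the intervals of Hapln1 overlap.

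Has1 lies at chr17:17843323-17855205 on the minus strand (GRCm38, GENCODE vM21) and encodes a hyaluronan synthase of the plasma membrane. Its level was 1449 CPM at puberty (1444 to 1454) and 850.0 CPM in the adult (846 to 854), and the ratio of adult to pubertal level was 0.587 (0.583 to 0.590). After every cell was thinned to 3000 UMIs, 80.9% of pubertal and 60.4% of adult Pdgfra+ cells still held a Has1 UMI (89.2% and 73.2% before thinning). Has1 was thus found in most fibroblasts at both stages, and the pubertal library held both more positive cells and more thinned UMIs in each positive cell (a mean of 5.18 against 3.89). Of all thinned cells, 9.92% of pubertal and 3.86% of adult cells had 10 or more Has1 UMIs. With the shares of 8 groups of cells (the 6 subsets taken exclusively, cells in more than 1, and cells in none) held at their mean over both libraries, the ratio was 0.669, just inside 1.5-fold.

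Has2 lies at chr15:56665627-56694539 on the minus strand and encodes the synthase that mouse embryos need for heart development. It stood at 162 CPM at puberty (160 to 163) and 67.4 CPM in the adult (66.4 to 68.4), and the adult level was 0.417 of the pubertal one (0.410 to 0.425). Thinned cells held a Has2 UMI in 25.8% of pubertal and 11.3% of adult cases (48.6% and 24.5% before thinning). The antisense gene Has2os overlaps Has2 on the opposite strand; it was counted separately at 48.6 CPM and 32.4 CPM, and how reads of the opposite strand were treated is not given in the sources used here. With the shares of the 8 groups of cells held fixed, the Has2 ratio was 0.533.

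Cd44 lies at chr2:102811141-102901665 on the minus strand and encodes the main cell-surface receptor of hyaluronan. It stood at 747 CPM at puberty (743 to 750.0) and 335 CPM in the adult (333 to 338), and the adult level was 0.449 of the pubertal one (0.446 to 0.453). The share of thinned cells with a UMI was 66.3% and 40.2% (85.8% and 64.4% before thinning). All 6 subsets had less Cd44 in the adult, with ratios from 0.342 in Crabp1 cells to 0.577 in Fabp4 cells, and the ratio was 0.457 with the shares of cells held fixed.

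Vcan lies at chr13:89655312-89742509 on the minus strand and encodes versican, a chondroitin sulfate proteoglycan whose head domain binds hyaluronan. It stood at 525 CPM at puberty (522 to 528) and 370 CPM in the adult (367 to 372), and the adult level was 0.704 of the pubertal one (0.698 to 0.710). A UMI was found in 58.6% and 43.7% of thinned cells (84.4% and 67.2% before thinning). The Vcan difference was smaller than 1.5-fold in the summed counts but reached 1.5-fold when each cell's own CPM was averaged (0.632).

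Prg4 lies at chr1:150449412-150466165 on the minus strand, and its protein lubricin keeps joint and tendon surfaces apart. It stood at 94.5 CPM at puberty (93.2 to 95.7) and 36.8 CPM in the adult (36.0 to 37.6), and the adult level was 0.389 of the pubertal one (0.380 to 0.399). Thinned cells held a UMI in 9.46% of pubertal and 4.89% of adult cases (19.0% and 10.8% before thinning), so Prg4 was found in a minority of fibroblasts at both stages. The 1% of thinned cells with most Prg4 held 39.4% of its UMIs at puberty and 52.8% in the adult, against 4.25% and 6.58% for Has1 and 13.6% and 25.8% for Has2.

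**Figure D2:**
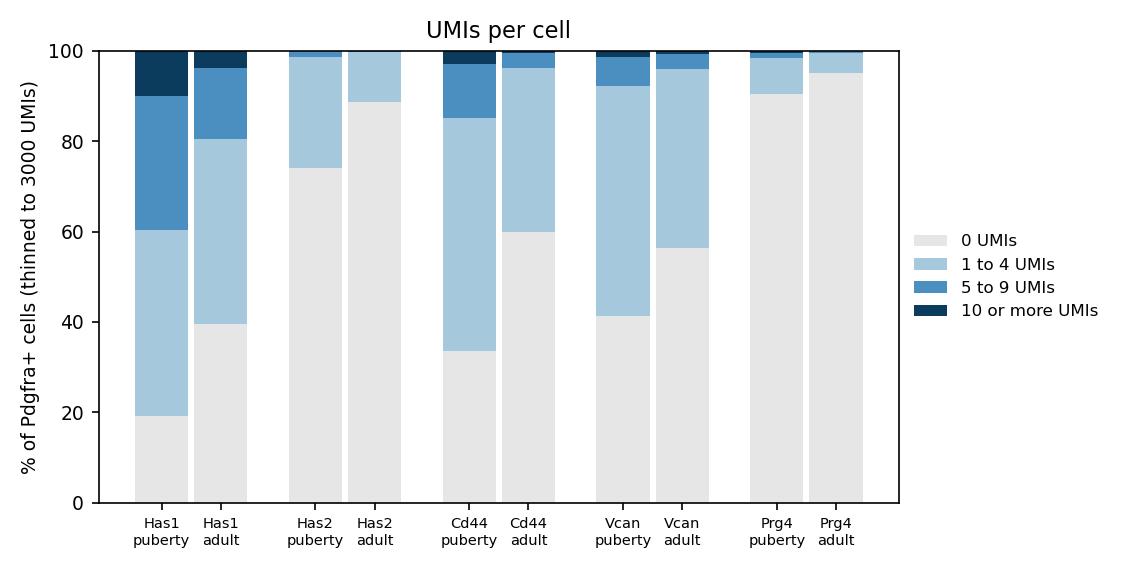
Share of Pdgfra+ cells (%) with 0, 1 to 4, 5 to 9 and 10 or more UMIs of Has1, Has2, Cd44, Vcan and Prg4 after each cell was thinned to 3000 UMIs, for 18542 pubertal and 20573 adult cells. The share without a UMI is larger in the adult for each of the 5 genes, from 19.1% to 39.6% for Has1 and from 90.5% to 95.1% for Prg4.

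Markers of other tissues stood beside these levels as follows. Of the tendon and synovial markers, Scx, Mkx and Clic5 stood between 0.0889 and 0.594 CPM over all Pdgfra+ cells and Tnmd at 0.646 and 2.91 CPM. These 4 summed to 1.99 CPM in pubertal cells with a Prg4 UMI and 1.57 CPM in those without. In the adult they summed to 3.19 CPM with and 4.04 CPM without. Among 6 mesothelial markers, Upk1b had 0 UMIs in both libraries and Msln 0 and 1, whereas Krt19 stood at 16.2 and 12.5 CPM. Of 5 cartilage markers, Matn1 had 0 UMIs and Acan, Col2a1 and Comp stood between 0.0404 and 0.292 CPM, whereas Sox9 stood at 22.6 and 12.5 CPM. Among 15 immediate-early and heat-shock genes that respond to cell dissociation, 4 were at least 1.5-fold higher in the adult (Jun, Ier2, Hspa1a and Hspa1b), beside 20.1% of all genes. At least 1.5-fold lower were 0, beside 10.3% of all genes. Hspa1a stood at 46.9 and 248 CPM and Hspa1b at 36.8 and 295 CPM. The part of this difference in the stage ratios was not tested.

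The 4 remaining members were sparse. Hyal2 (chr9:107567945-107572779, plus strand), whose product cuts long hyaluronan at the cell surface, stood at 3.24 CPM (3.01 to 3.47) and 4.05 CPM (3.801 to 4.31). Hyal1 (chr9:107576927-107581710, plus strand), a lysosomal hyaluronidase, stood at 2.13 CPM (1.95 to 2.32) and 2.75 CPM (2.54 to 2.96). Their ratios were 1.25 (1.14 to 1.38) and 1.29 (1.15 to 1.45), both within 1.5-fold. Hyal1 overlaps Naa80 and Hyal3 on the same strand, and reads in the shared stretch cannot be told apart by gene; Naa80 stood at 4.79 and 5.73 CPM and Hyal3 at 0.300 and 0.384 CPM. Cemip (chr7:83932857-84086502, minus strand), which is needed for hyaluronan breakdown in skin fibroblasts, had 91 and 152 UMIs, or 0.384 CPM (0.310 to 0.472) and 0.614 CPM (0.520 to 0.720), a ratio of 1.60 (1.22 to 2.09) that did not hold at 1.5-fold under the 3 settings given above.

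The sparse genes were set beside mural cells, which surround blood vessels and were defined as cells without a Pdgfra UMI that had UMIs of at least 3 of 8 pericyte and smooth muscle markers. There were 722 pubertal and 408 adult mural cells, with median depths of 6368 and 6203.5 UMIs, below the 12187 and 11265 UMIs of Pdgfra+ cells. After thinning, Hyal1 UMIs occurred in 0.739% of pubertal Pdgfra+ cells and 0.846% of adult ones (2.601% and 3.16% before thinning) and in 1.45% and 0.893% of mural cells. Cemip was found in 0.0917% and 0.180% of Pdgfra+ cells (0.350% and 0.386% before thinning) and in 0.145% and 0.298% of mural cells. The Hyal1 share was at or below the mural share in each library, but inside the mural interval (0.698% to 2.65% and 0.185% to 2.59%). Those mural Hyal1 shares rest on 10 and 3 cells, so they do not place Hyal1 above or below mural cells. The mural Cemip share rests on 1 cell in each library, and in summed counts adult Cemip stood at 0.614 CPM in Pdgfra+ and 0.395 CPM in mural cells (0.01001 to 2.20), so the depth does not place Cemip above or below mural cells. No stage difference is read from either gene. Hyal2 was found in 1.05% and 1.10% of Pdgfra+ cells (3.93% and 4.50% before thinning) and in 0.581% and 0.298% of mural cells, and both Pdgfra+ shares lay inside the mural intervals (0.158% to 1.48% and 0.00753% to 1.65%).

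The other members stood far from the mural level. Has1 was found in 9.43% and 4.17% of thinned mural cells, Cd44 in 7.26% and 7.74%, Vcan in 3.63% and 1.19%, Has2 in 1.16% and 0.595%, and Prg4 in 0.290% and 0.298%. In summed counts, mural Has1 stood at 87.2 and 12.7 CPM and mural Prg4 at 3.16 and 0.395 CPM. Each of these was below the Pdgfra+ value of the same library.

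Hapln1 (chr13:89539796-89611652, plus strand) encodes a link protein that locks versican or aggrecan onto hyaluronan, and it is the neighbour of Vcan, with 43659 bases and no other annotated gene between them. It had 20 UMIs over all pubertal and 26 over all adult Pdgfra+ cells, or 0.0845 and 0.105 CPM. None of the 817 pubertal and 622 adult Ccn5 cells held a Hapln1 UMI, which allows shares of up to 0.367% and 0.482% of cells with one, taking 3 cells as the limit that a count of 0 allows. Among the cells without Pdgfra, Schwann cells, defined by 3 of 5 myelin and neural crest markers, stood at 31.0 CPM (7 UMIs in 60 pubertal cells) and 5.40 CPM (2 UMIs in 52 adult cells). Hapln1 was thus barely detected in the fibroblasts in which its neighbour Vcan was found widely.

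The windows before the RefSeq start of Has1, Cd44 and Vcan, whose levels were below the pubertal ones in the adult, and of the synthesis gene Ugdh, which is described further on, are printed below so that their letters can be set beside those levels. RefSeq promoter entries on GRCm38.p6 were found for 7 of the 9 members; Has2 and Prg4 were not among them. Each run gives the 250 bases before the start, 5′ to 3′ on the gene's strand, with matches to any of 5 motifs in capitals: the CCAAT box (CCAAT), the GC box (GGGCGG), the TATA box (TATAAA), the cyclic AMP response element (TGACGTCA) and the AP-1 site (TGANTCA), each searched on both strands.
Has1, chr17:17855189-17855438, minus strand: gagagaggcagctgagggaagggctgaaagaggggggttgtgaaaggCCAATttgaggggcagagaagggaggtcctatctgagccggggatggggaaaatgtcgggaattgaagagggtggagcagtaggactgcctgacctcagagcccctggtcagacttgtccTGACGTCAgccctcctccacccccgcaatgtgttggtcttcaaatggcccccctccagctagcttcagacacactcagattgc
Cd44, chr2:102901666-102901915, minus strand: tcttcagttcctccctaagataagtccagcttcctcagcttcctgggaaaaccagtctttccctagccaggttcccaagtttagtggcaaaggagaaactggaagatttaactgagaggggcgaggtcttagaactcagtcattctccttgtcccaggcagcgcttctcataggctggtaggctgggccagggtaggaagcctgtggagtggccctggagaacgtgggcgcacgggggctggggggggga
Vcan, chr13:89742513-89742762, minus strand: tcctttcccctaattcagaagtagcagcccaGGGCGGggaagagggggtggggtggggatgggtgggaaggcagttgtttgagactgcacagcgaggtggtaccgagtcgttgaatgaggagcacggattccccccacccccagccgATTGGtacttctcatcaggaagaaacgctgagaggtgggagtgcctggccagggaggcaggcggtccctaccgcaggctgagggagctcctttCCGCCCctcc
Ugdh, chr5:65435843-65436092, minus strand: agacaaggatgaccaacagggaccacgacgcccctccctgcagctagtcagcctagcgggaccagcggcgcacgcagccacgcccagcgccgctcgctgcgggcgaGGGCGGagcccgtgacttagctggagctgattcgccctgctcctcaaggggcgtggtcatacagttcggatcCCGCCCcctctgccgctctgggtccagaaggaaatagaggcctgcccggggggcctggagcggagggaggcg

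The Has1 window held a CCAAT box and, between bases -83 and -76 from the start, the 8 letters of the cyclic AMP response element, which occurred in 1.55% of 32817 windows of the same length. The Vcan window held 1 CCAAT box and 2 GC boxes, and the Ugdh window held 2 GC boxes. These are common: the CCAAT box occurred in 33.8% of windows and the GC box in 32.7%. The Cd44 window held none of the 5 motifs, and no TATA box (12.4% of windows) or AP-1 site (6.75%) was in any of the 4. A match is a run of letters and not a measured binding site.

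Each subset was compared with the Pdgfra+ cells outside it. In Pi16+Dpp4+ cells, the progenitor-type cells, Has2 and Prg4 were at least 2-fold higher in both libraries, beside 4.62% of the 15847 genes compared, and 0 members were at least 2-fold lower, beside 7.52%. Has2 stood at 192 CPM inside and 60.0 CPM outside at puberty (3.20-fold, 3.09 to 3.32) and at 105 and 31.2 CPM in the adult (3.38-fold, 3.26 to 3.50). Prg4 stood at 114 and 28.2 CPM at puberty (4.06-fold) and at 50.9 and 23.3 CPM in the adult (2.19-fold).

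Has1 followed the same direction in Pi16+Dpp4+ cells with a smaller fold. It stood at 1666 CPM inside and 731 CPM outside at puberty (2.28-fold) and at 1101 and 611 CPM in the adult (1.80-fold), so it passed 2-fold in the pubertal library alone. Vcan was 1.42-fold and 1.26-fold higher inside, and Cd44 1.15-fold and 1.09-fold. When the subsets were called on cells thinned to 3000 UMIs, the Prg4 fold was 2.20 at puberty and 1.74 in the adult, below 2-fold, and Has2 was 2.10-fold and 3.57-fold higher.

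**Figure D3:**
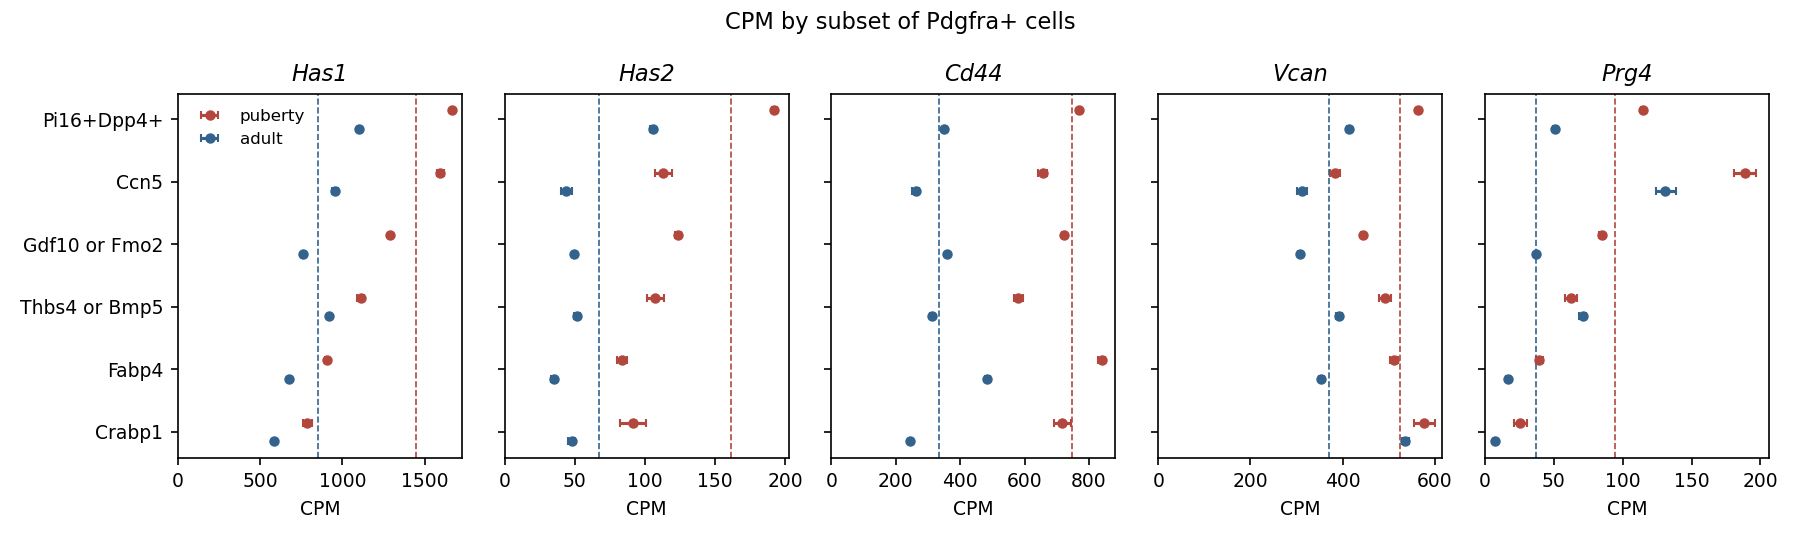
Summed level (CPM) of Has1, Has2, Cd44, Vcan and Prg4 in the 6 subsets of Pdgfra+ cells in each library, with exact Poisson 95% intervals; dashed lines give the level over all Pdgfra+ cells of the library. Has2 is highest in Pi16+Dpp4+ cells at both stages, Prg4 in Ccn5 cells, Cd44 in Fabp4 cells, and adult Vcan in Crabp1 cells.

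Within Pi16+Dpp4+ cells Has1, Has2, Cd44 and Prg4 were at least 1.5-fold lower in the adult, and Vcan was within 1.5-fold. The share of all genes past 1.5-fold within this subset was not counted. The ratio of adult to pubertal level was 0.661 for Has1, 0.548 for Has2, 0.455 for Cd44, 0.733 for Vcan and 0.445 for Prg4. In cells of this subset alone the Has1 ratio was 0.690, inside 1.5-fold. There it was 0.647 for Has2, 0.414 for Cd44, 0.723 for Vcan and 0.346 for Prg4. Outside the Pi16+Dpp4+ subset Has1 stood at 731 CPM at puberty and 611 CPM in the adult. For Has2 the share of all its UMIs found in cells of the Pi16+Dpp4+ subset alone was 60.6% at puberty and 45.7% in the adult, while those cells made up 47.9% and 21.7% of Pdgfra+ cells.

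Ccn5 cells, named for a matricellular protein of the CCN family, held the highest Prg4 levels. Prg4 was the 1 member at least 2-fold higher in them in both libraries, beside 0.877% of genes, and 0 members were at least 2-fold lower, beside 3.33%. Prg4 stood at 189 CPM inside and 89.3 CPM outside at puberty (2.11-fold, 2.02 to 2.21) and at 131 and 33.0 CPM in the adult (3.97-fold, 3.74 to 4.22). Has2 was lower in Ccn5 cells than outside them, at 113 against 164 CPM at puberty and 43.9 against 68.4 CPM in the adult (0.642-fold), but with subsets called on thinned cells the adult fold was 0.995. The Prg4 direction was not seen in the few Ccn5 cells outside the other subsets. Among cells in exactly 1 subset, Prg4 was 0.333-fold at puberty and 0.399-fold in the adult. These folds rest on 15 and 20 Ccn5 cells with 6 and 3 Prg4 UMIs. When the subsets were called on thinned cells, Prg4 in Ccn5 cells was 1.68-fold higher at puberty, below 2-fold, and 3.404-fold higher in the adult.

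The overlap of subsets showed how Prg4 was placed. Pubertal cells in both the Pi16+Dpp4+ and the Ccn5 subset had 198 CPM of Prg4, those in Pi16+Dpp4+ without Ccn5 109 CPM, those in Ccn5 without Pi16+Dpp4+ 92.9 CPM, and those in neither 26.9 CPM. In the adult the same 4 groups had 143, 44.7, 86.6 and 22.2 CPM. Cells in both were highest and cells in neither lowest at each stage, and the stage difference was largest in Pi16+Dpp4+ cells without Ccn5. Of the 304 pubertal cells with at least 5 thinned Prg4 UMIs, 95.4% were Pi16+Dpp4+, against 74.6% of all thinned cells, and 8.55% were Ccn5 cells, against 4.41%. Of the 83 such adult cells, 62.7% were Pi16+Dpp4+ against 42.8%, 12.05% were Ccn5 cells against 3.02%, and 37.3% were Thbs4 or Bmp5 cells against 15.0%.

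**Figure D4:**
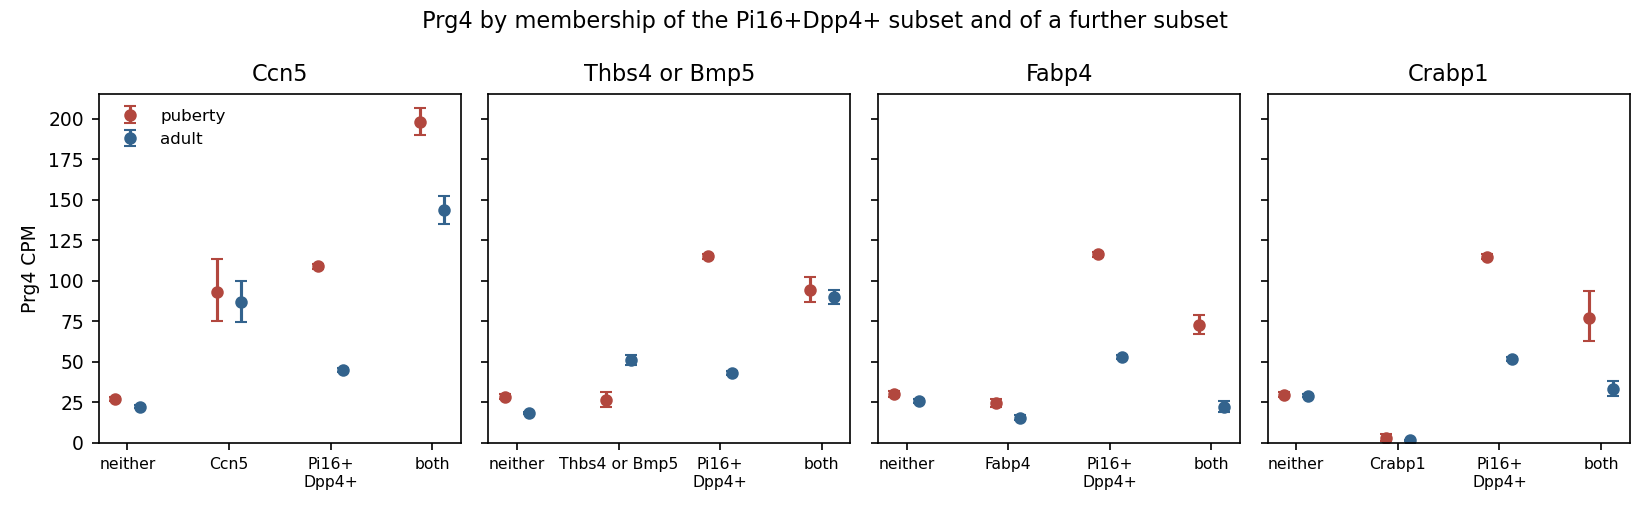
Prg4 level (CPM, with exact Poisson 95% intervals) in Pdgfra+ cells that were in neither of a pair of subsets, in the named subset only, in the Pi16+Dpp4+ subset only, or in both, for 4 named subsets. Cells in both the Pi16+Dpp4+ and the Ccn5 subset are highest at each stage, at 198 and 143 CPM. Crabp1 cells outside the Pi16+Dpp4+ subset are lowest, at 2.71 and 1.43 CPM.

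In Thbs4 or Bmp5 cells, marked by a thrombospondin and a bone morphogenetic protein, 0 members were at least 2-fold higher in both libraries, beside 2.37% of genes, and 0 lower, beside 1.31%. Prg4 nevertheless stood on different sides in the 2 libraries: 62.4 CPM inside and 96.1 CPM outside at puberty (0.649-fold, 0.602 to 0.698), and 70.8 and 30.4 CPM in the adult (2.33-fold, 2.23 to 2.44). Among cells in exactly 1 subset, the pubertal fold was 0.260, and the adult fold was below 2-fold. There adult Prg4 stood at 47.0 CPM in Thbs4 or Bmp5 cells and 38.5 CPM in Pi16+Dpp4+ cells. It stood at 29.9 CPM in Gdf10 or Fmo2, 12.4 CPM in Ccn5, 8.59 CPM in Fabp4 and 0.552 CPM in Crabp1 cells. Thbs4 or Bmp5 cells were the only one of the 6 subsets in which Prg4 was higher in the adult, with a ratio of 1.14 (1.05 to 1.23). In cells of this subset alone the levels were 24.2 CPM (58 UMIs) and 47.0 CPM (362 UMIs), a ratio of 1.94 (1.47 to 2.61). Has1 was 1111 and 921 CPM in Thbs4 or Bmp5 cells, the ratio nearest 1 among the subsets (0.829), and in cells of that subset alone 842 and 843 CPM. Mural markers summed to 433 CPM in the pubertal and 147 CPM in the adult Thbs4 or Bmp5 cells, against 157 and 107 CPM over all Pdgfra+ cells; their part in these values was not tested.

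In Gdf10 or Fmo2 cells, named for markers of adipogenesis-regulatory fibroblasts, 0 members were at least 2-fold higher, beside 1.35% of genes, and 0 lower, beside 0.77%. Of Gdf10 or Fmo2 cells, 70.9% at puberty and 61.5% in the adult were also in another subset. Has2 was 0.652-fold and 0.578-fold of the level outside, and Vcan 0.762-fold and 0.706-fold. Prg4 was at 0.837-fold and 1.03-fold of the level outside. Among cells in exactly 1 subset, Has2 was 0.238-fold and 0.237-fold and Vcan 0.475-fold and 0.419-fold, both then at least 2-fold lower in each library. The share of all genes past 2-fold in such cells was not counted. Prg4 was 0.323-fold and 0.939-fold there.

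In Fabp4 cells, named for a fatty acid binding protein of the adipose lineage, Has2 and Prg4 were at least 2-fold lower in both libraries, beside 3.98% of genes, and 0 members were higher, beside 2.74%. Has2 stood at 83.4 CPM inside and 171 CPM outside at puberty (0.488-fold) and at 34.9 and 73.2 CPM in the adult (0.477-fold). Prg4 stood at 39.4 and 101 CPM at puberty (0.390-fold) and at 16.9 and 40.3 CPM in the adult (0.418-fold). With subsets called on thinned cells the adult Prg4 fold was 0.645, inside 2-fold. Cd44 was placed the other way, at 840.1 against 735 CPM at puberty (1.14-fold) and 485 against 309 CPM in the adult (1.57-fold, 1.54 to 1.60). Mural markers summed to 574 and 253 CPM in Fabp4 cells; mural cells themselves had 47.2 and 44.7 CPM of Cd44, 5.90 and 1.98 CPM of Has2 and 3.16 and 0.395 CPM of Prg4, each below the level in Fabp4 cells. The part of mural RNA in the Has2 and Prg4 folds was not tested.

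In Crabp1 cells, named for a retinoic acid binding protein, Prg4 was the 1 member at least 2-fold lower in both libraries, beside 7.85% of genes, and 0 members were higher, beside 4.69%. Prg4 stood at 25.2 against 95.7 CPM at puberty (0.264-fold) and 7.21 against 41.3 CPM in the adult (0.175-fold, or 0.0772-fold without the cells marked as doublets). Has1 was also lower, at 788 against 1461 CPM (0.539-fold) and 584 against 890.1 CPM (0.657-fold). Vcan was higher instead, at 577 against 524 CPM at puberty (1.10-fold) and 536 against 344 CPM in the adult (1.56-fold, 1.53 to 1.58). In cells of the Crabp1 subset alone Vcan stood at 650.4 CPM (100 pubertal cells) and 754 CPM (1039 adult cells), a ratio of 1.16 (1.08 to 1.25), while it was lower in the adult in cells of the Fabp4 subset alone (0.616). Cd44 in Crabp1 cells stood at 718 CPM at puberty and 245 CPM in the adult, the largest stage difference of Cd44 among the subsets.

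Cells with a Has1 UMI more often held Has2, Prg4, Cd44 and Vcan as well, and less often Hyal1. After thinning, Has2 UMIs occurred in 28.6% of pubertal cells with Has1 and 14.0% of those without, and in 14.0% and 6.999% in the adult. Prg4 was found in 10.5% and 5.19% at puberty and in 5.95% and 3.27% in the adult. For Cd44 the shares were 69.2% and 54.2% at puberty and 44.7% and 33.3% in the adult. For Vcan they were 61.5% and 46.3% at puberty and 47.7% and 37.6% in the adult. Cells with a Prg4 UMI differed less in Has2, at 30.6% against 25.3% at puberty and 14.5% against 11.1% in the adult. Cells with and without a UMI of a gene also differ in subset, and the part of that in these shares was not tested.

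Hyaluronan synthases draw on sugar nucleotides made by a few enzymes. Of 8 further synthesis genes (Has3, Ugdh, Ugp2, Uap1, Gfpt1, Gfpt2, Gnpnat1 and Pgm3), 5 were at least 1.5-fold lower in the adult (Has3, Ugdh, Ugp2, Uap1 and Pgm3), beside 10.3% of all genes, and 0 higher, beside 20.1%, with a median log2 ratio of -0.68 against 0.17 over all genes. Ugdh, which makes UDP-glucuronic acid, stood at 3479 and 1442 CPM (0.414). Uap1, which makes UDP-N-acetylglucosamine, stood at 826 and 414 CPM (0.501). Ugp2, which makes UDP-glucose, stood at 725 and 462 CPM (0.637), and Pgm3, an enzyme of the hexosamine pathway, at 64.2 and 37.8 CPM (0.588). Has3, a synthase, stood at 1.07 and 0.658 CPM (0.614). Gfpt1 (0.854), Gnpnat1 (0.825) and Gfpt2 (0.777) were within 1.5-fold; Gfpt2, which carries out the first step of the hexosamine pathway, stood at 2614 and 2031 CPM.

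In Pi16+Dpp4+ cells 5 of the 8 were at least 2-fold higher in both libraries (Ugdh, Ugp2, Uap1, Gfpt2 and Gnpnat1), beside 4.62% of all genes, and in Crabp1 cells 4 were at least 2-fold lower, beside 7.85%. Ugdh stood at 4005 CPM inside Pi16+Dpp4+ cells and 1734 CPM outside at puberty (2.31-fold) and at 2273 and 648 CPM in the adult (3.51-fold). Within Pi16+Dpp4+ cells the ratio of adult to pubertal level was 0.568 for Ugdh, 0.677 for Uap1, 0.678 for Pgm3, 0.883 for Ugp2, 1.04 for Gfpt2 and 1.08 for Gnpnat1, while it was 0.614 for Has3 and 0.777 for Gfpt1, the 1 gene farther from 1 than over all cells. Gfpt2 therefore stood lower in the adult over all Pdgfra+ cells but not within that subset.

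**Figure D5:**
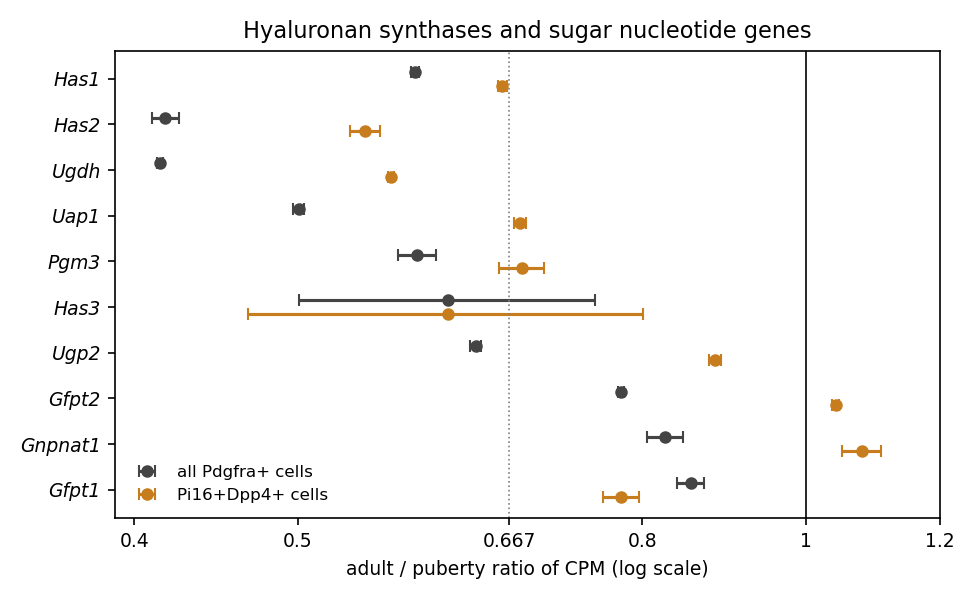
Ratio of adult to pubertal CPM (log scale) of Has1, Has2 and the 8 synthesis genes over all Pdgfra+ cells and in Pi16+Dpp4+ cells, with 95% intervals for counting error; the solid line marks 1 and the dotted line 1.5-fold lower. All 10 genes lie below 1 over all Pdgfra+ cells, from 0.414 for Ugdh to 0.854 for Gfpt1, and Gfpt2 and Gnpnat1 lie above 1 within Pi16+Dpp4+ cells.

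The wider lists held genes on both sides. Over 62 genes of hyaluronan and versican biology, 52 had enough UMIs, of which 10 were at least 1.5-fold higher in the adult, a share near the 20.1% of all genes, and 14 at least 1.5-fold lower, beside 10.3% of all genes. Among the proteins that bind or cross-link hyaluronan, Ptx3, a pentraxin that stabilises hyaluronan matrix, stood at 791 and 334 CPM (0.422), whereas Tnfaip6, which transfers heavy chains onto hyaluronan, stood at 4452 and 3931 CPM (0.883). Among the receptors, Icam1 stood at 76.1 and 154 CPM (2.02). Of the turnover genes 0 of the 5 compared passed 1.5-fold, beside 20.1% of all genes higher and 10.3% lower, and 5 genes are few for such a count.

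Of 11 genes that build chondroitin chains such as those of versican, 4 were at least 1.5-fold higher, beside 20.1% of all genes, and 1 lower, a share near the 10.3% of all genes. Xylt1, which starts the chain, stood at 269 and 131 CPM (0.487). Csgalnact1, which adds the first N-acetylgalactosamine, stood at 35.5 and 94.3 CPM (2.65), and Chsy1, which extends the chain, at 26.3 and 43.7 CPM (1.66). Chsy1 was also 4.31-fold and 2.96-fold higher in Crabp1 cells, the subset with the highest adult Vcan. Adamts4, which cuts versican, was higher in the same cells too, by 4.73-fold and 2.33-fold. Of all genes compared, 4.69% were at least 2-fold higher in Crabp1 cells in both libraries. Adamts4 was also higher in Fabp4 cells, by 5.34-fold and 2.10-fold, where Vcan was 0.972-fold and 0.951-fold of the level outside. Of 6 proteases that cut versican, Adamts1 stood at 1344 and 736 CPM (0.548) and Adamts9 at 111 and 55.5 CPM (0.4997), while Adamts4 stood at 34.7 and 52.8 CPM (1.52) and Adamts5 at 771 and 820.0 CPM (1.06). Of 5 versican partners, Fbn1, the microfibril protein fibrillin-1, was at 2633 and 1644 CPM (0.624), and the other 4 stayed within 1.5-fold. Of the lubricin genes, Ctsb, a cathepsin, stood at 488 and 679 CPM (1.39), and Comp, a cartilage matrix protein, at 0.292 and 0.149 CPM.

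The genes with the most similar pattern were taken as the highest Pearson correlations of log2(CPM + 1) over 12 sums (the 6 exclusive subsets in each library). For Has1 they were Rtn3 (r = 0.96), Rb1cc1 (0.96) and Ston2 (0.94), and for Prg4 Use1 (0.96), Irf4 (0.94) and Tshz2 (0.94). For Cd44 they were Elf1 (0.93), Papss2 (0.88) and Fosl1 (0.87). These are correlations across sums that share libraries, and the sums for Ccn5 rest on 15 and 20 cells. With the overlapping subsets as points, 0 of the 3 names remained for Has1 and for Prg4, and 1 for Cd44 (Fosl1).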

How the data were processed

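Stromal cells were profiled by 10x single-cell RNA-seq, with 1 library per stage. The deposited matrices hold UMI counts per gene and cell, made by the authors with Cell Ranger 8.0.1 on mm10, per the submitters' processing notes; the strand setting and the gene annotation version are not given in the sources used here. The study's own analysis removed doublets predicted by scDblFinder, and whether that came before deposit is not stated. Of the 33696 gene IDs, 31961 were in GENCODE vM21, which gave the positions.

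Cells with at least 500 genes, at most 10% mitochondrial UMIs and at least 1 Pdgfra UMI were kept, and UMIs were summed over cells and scaled to counts per 1000000 UMIs (CPM) (Python 3.11.15, numpy 2.4.6, pandas 2.3.3, scipy 1.17.1). Intervals are exact Poisson for levels, Clopper-Pearson for shares and conditional binomial for ratios, and cover counting error only. Genes with at least 50 UMIs over both libraries were compared; a stage difference was counted from 1.5-fold, a subset difference from 2-fold in both libraries. Cells were thinned to 3000 UMIs to compare shares, leaving out 336 pubertal and 426 adult cells. Doublets were kept, and 1881 and 2150 cells were marked with Scrublet (scanpy 1.11.5) for an alternative; other alternatives were TMM scaling (edgeR 4.0.16, R 4.3.3), other cell filters and other subset definitions. The calculation was tested on simulated data.

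The members and gene lists were chosen with earlier results of these data known. Named are the 9 members, the pathway genes past 1.5-fold between the stages with at least 20 CPM in 1 library, and the 3 genes most like a member; Gfpt1, Gfpt2, Gnpnat1, Has3, Tnfaip6, Adamts5, Ctsb and Comp, and the cells with at least 5 Prg4 UMIs, were chosen after their values were seen. Promoter windows came from RefSeq (GRCm38.p6).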

Additional observations from a re-analysis of the deposited data

Results flagged for a closer look

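Some members stood on opposite sides in 2 groups of cells under the same comparison of stages, and these differences were not tested, since each stage was 1 library. The ratio of adult to pubertal Vcan level was 1.16 in cells of the Crabp1 subset alone and 0.616 in cells of the Fabp4 subset alone. For Prg4 the ratio was 1.94 in cells of the Thbs4 or Bmp5 subset alone and 0.346 in cells of the Pi16+Dpp4+ subset alone.

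The cells that passed the filters but had no Pdgfra UMI were outside the comparisons above. They were 2656 pubertal and 1973 adult cells with medians of 6513.5 and 5098 UMIs, of which 722 and 408 were mural cells. Members were detected in them above the limit that a count of 0 allows, apart from adult Cemip and Hapln1. Adult Cemip was in 3 cells, which is that limit, and adult Hapln1 in 2. Has1 stood at 1085 CPM at puberty and 611 CPM in the adult, and Has2 at 131 and 53.0 CPM. Cd44 stood at 621 and 293 CPM, and Vcan at 414 and 212 CPM. Prg4 stood at 92.3 and 10.3 CPM. Hyal1 stood at 1.79 and 3.05 CPM, Hyal2 at 3.46 and 4.74 CPM, and Cemip at 0.379 and 0.339 CPM. Hapln1 stood at 0.379 CPM in the pubertal cells, from 7 UMIs in all, each of which was in a Schwann cell.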

How the results depend on the processing

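No paired analysis was possible because the stages share only 1 replicate number and no test was run. The number of members at least 1.5-fold lower in the adult was 4 and ran from 3 to 5 over 10 alternatives: Has1 left it with the shares of cells held fixed, and Vcan joined it under TMM scaling, under averaging over cells and after thinning. The number at least 1.5-fold higher, 1 (Cemip), was 0 under TMM scaling, with shares of cells held fixed, and with at least 2 Pdgfra UMIs. Has1, Has2, Cd44, Vcan and Prg4 stayed below 1 in all 10, at 0.532 to 0.669 for Has1, 0.378 to 0.533 for Has2, 0.407 to 0.457 for Cd44, 0.632 to 0.740 for Vcan and 0.353 to 0.438 for Prg4. In cells of exactly 1 subset, the pairs of member and subset at least 2-fold lower in both libraries numbered 8 instead of 3. The share of all genes past 2-fold in such cells was not counted, so the rise is not read as a trait of the members. There Prg4 in Ccn5 cells turned to 0.333-fold at puberty and 0.399-fold in the adult, on 15 and 20 cells with 6 and 3 Prg4 UMIs. Prg4 in adult Pi16+Dpp4+ cells was 1.56-fold higher in cells of exactly 1 subset, 1.94-fold with 1 UMI more for each defining gene and 1.74-fold after thinning. The cause was not tested in any of these.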
